A study of Mus musculus with 8 samples.

Results

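Interferon-stimulated genes are the genes that cells switch on when interferons bind their receptors. Here 40 of them were followed in mouse hearts with a leaking mitral valve and in hearts after a Sham procedure. They were taken by symbol from the deposited table of 33105 genes, all 40 were found, and all 40 passed the filter on low counts. RNA was sequenced from the hearts of C57BL/6J mice, in 4 libraries labelled MR, the series' abbreviation for mitral regurgitation made by a minimally invasive operation, and 4 labelled Sham. Both groups share the strain, and neither a transgene nor a drug is named for either. The labels used here do not give the region of the heart, the age of the mice or the time after surgery. They also do not say whether each library is its own mouse, so p-values measure only the spread between these libraries, which may be technical.

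As background, type I interferons signal through a complex that holds STAT2 and IRF9 and binds an enhancer called the interferon-stimulated response element (ISRE). Interferon gamma acts through another sequence, the gamma-activated site (GAS), and induces IRF1, a factor that can also bind the ISRE. Ifit, Oas and Mx genes are the classical targets of the first route and are called type I-like below, while guanylate-binding proteins (Gbp) and immunity-related GTPases (Irg) are called interferon-gamma-like. The division is one of emphasis, since many of these genes answer to both.

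Total counts ran from 42291511 to 58658094 per library, and values are given in CPM (read counts relative to library size, scaled by TMM), with 0.0511 to 0.0709 CPM as the limit that a count of 0 allows. Such limits cover counting error only. The tissue label was checked with 7 heart muscle genes, whose summed level was 40355 to 46606 CPM in MR and 44868 to 52822 CPM in Sham, with Sham replicate 3 the lowest of Sham. The Sham libraries were uneven in more than 1 way. On the first principal component, which held 30.5% of the variance, the MR libraries lay at −22.8 to −12.6, Sham replicate 3 at −7.18 and the other Sham libraries at 15.7 to 32.4. On the second component (17.6%) Sham replicate 1 was the most distant library, at −31.2. By chi-square per degree of freedom over all genes, Sham replicate 1 differed most from the other Sham libraries (32.1 to 42.6, against 14.0 to 28.3 among those 3), and Sham replicates 2 and 3 were the closest Sham pair. Results that rest on Sham replicate 3 are given with and without it, and leaving out Sham replicate 1 is among the alternatives. Neutrophil marker genes, 10 in number and none at 0 in every library, summed to 3.31 to 6.27 CPM in MR and 8.85 to 78.5 CPM in Sham, with Sham replicate 3 the lowest of Sham. In bulk tissue fewer cells of a type and less RNA per cell cannot be told apart.

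The control regions are shown first, because both interferon routes act on short sequences of this kind; not every promoter held one. RefSeq promoters (GRCm38.p6, 250 bases before to 50 bases after each annotated start) were matched for 30 of the 40 genes. The ISRE was searched as GAAA, NN and GAAA in a row and the GAS as TTC, NNN and GAA in a row, where N is any base, on both strands and with overlapping matches kept. The ISRE letters stood in 17 of the 30 genes (56.7%), against 3.99% of 27025 genes with a promoter. The GAS letters stood in 8 of the 30 (26.7%), against 9.55%. Of 8 type I-like genes with a promoter 5 held the ISRE letters and 2 the GAS letters, and of 5 interferon-gamma-like genes all 5 held the ISRE letters and 2 the GAS letters. A match is a description of sequence, not of binding.

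The following stretches are the 250 bases before the start of 4 genes, written on the gene's strand with ISRE and GAS matches in capitals. They belong to the genes with the lowest p in the type I-like and interferon-gamma-like classes that have an entry and hold a match; Oasl1 and Oasl2 held neither set of letters. The Irgm1 stretch lies within an exon of a GENCODE transcript with no coding part, and the last bases of the Gbp3 stretch overlap the UTR of a GENCODE transcript, because the RefSeq starts lie further inside these genes.
Ifit3b (chr19:34607707-34607956, plus strand): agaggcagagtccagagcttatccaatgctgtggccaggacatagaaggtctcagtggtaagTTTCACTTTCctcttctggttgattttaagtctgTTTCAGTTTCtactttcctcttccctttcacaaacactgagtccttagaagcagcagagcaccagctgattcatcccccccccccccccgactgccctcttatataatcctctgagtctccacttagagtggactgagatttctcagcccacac
Irgm1 (chr11:48871421-48871670, minus strand): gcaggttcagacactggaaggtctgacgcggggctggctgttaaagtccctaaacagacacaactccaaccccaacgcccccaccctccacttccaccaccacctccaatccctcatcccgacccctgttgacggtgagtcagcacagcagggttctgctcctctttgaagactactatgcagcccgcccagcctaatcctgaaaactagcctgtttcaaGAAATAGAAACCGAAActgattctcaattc
Igtp (chr11:58199306-58199555, plus strand): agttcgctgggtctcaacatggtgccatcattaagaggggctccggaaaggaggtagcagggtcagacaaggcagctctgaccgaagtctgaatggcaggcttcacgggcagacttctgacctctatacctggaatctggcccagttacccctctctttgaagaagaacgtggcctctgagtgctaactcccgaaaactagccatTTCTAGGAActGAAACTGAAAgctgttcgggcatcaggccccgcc
Gbp3 (chr3:142559794-142560043, plus strand): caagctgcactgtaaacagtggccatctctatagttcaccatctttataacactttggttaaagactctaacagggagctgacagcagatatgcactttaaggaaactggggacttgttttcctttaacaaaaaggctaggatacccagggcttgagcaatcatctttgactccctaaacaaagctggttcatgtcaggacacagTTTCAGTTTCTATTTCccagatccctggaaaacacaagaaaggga

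In Ifit3b the 2 ISRE matches were separate, in Irgm1 and Gbp3 the 2 matches overlapped in 1 run, and in Igtp a GAS match lay just before an ISRE match. Single sites with 10 bases on each side are set out for 3 further genes, as an example of one core that occurs in genes of both classes.
Ifit1 (chr19:34640775-34640804, plus strand): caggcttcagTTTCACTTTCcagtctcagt
Ifit3 (chr19:34583363-34583392, plus strand): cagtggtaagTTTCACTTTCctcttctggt
Gbp2 (chr3:142620594-142620623, plus strand): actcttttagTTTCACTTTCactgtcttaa

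The 3 sites were picked for their identical capitals; the second sites of Ifit1 and Ifit3 and those of Isg15 had other letters at the open positions. The first bases of the ISRE matches of Ifit1, Ifit3 and Ifit3b stood at −188 to −85 from the annotated start. Those of Gbp2, Gbp3, Gbp7, Igtp and Irgm1 stood at −59 to −24. The other type I-like genes with ISRE matches were Oas3, at −75, and Oas1a, at −20 and −14. Position therefore did not separate the classes.

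**Figure D1:**
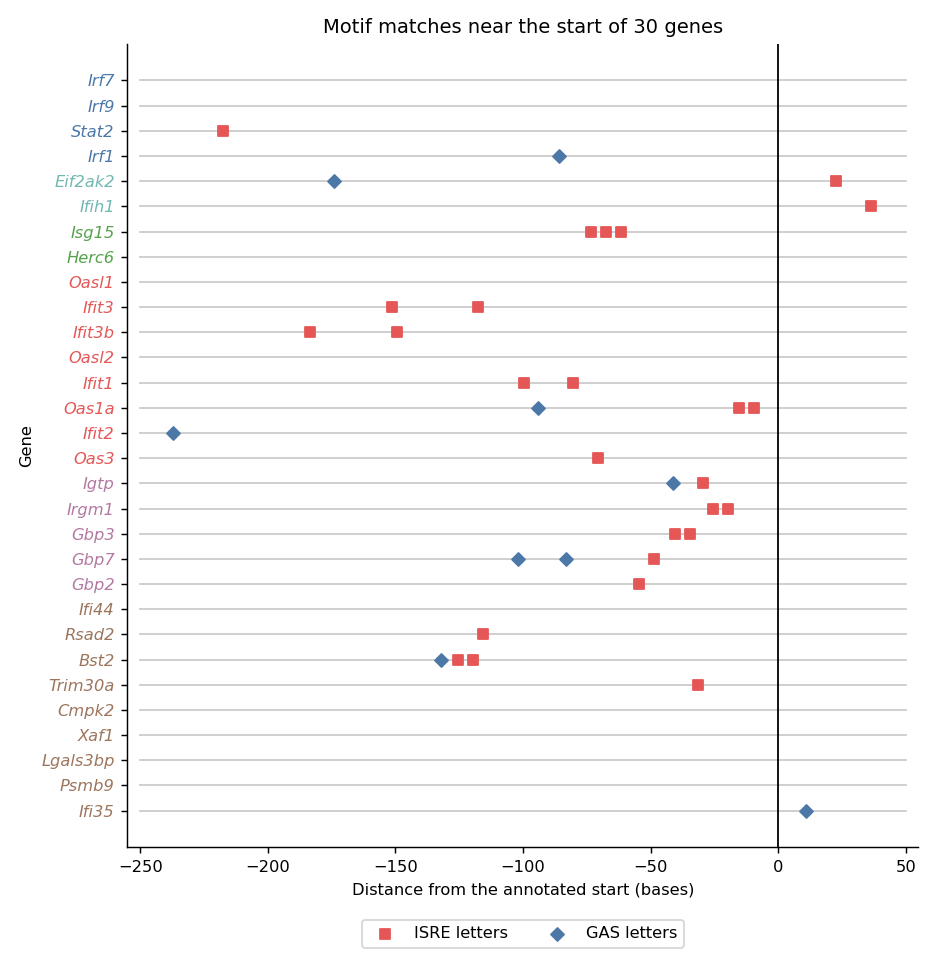
Position of ISRE (squares) and GAS (diamonds) matches from 250 bases before to 50 bases after the annotated start, in bases, for the 30 genes with a RefSeq promoter; name colours mark the gene classes of the heat map. Matches of the Gbp and Irg genes begin at −106 or nearer to the start, and 10 genes carry neither set of letters.

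No interferon-stimulated gene passed the test between MR and Sham with all 8 libraries, yet nearly all had higher means in MR. Of 40 genes 0 were called higher and 0 lower at an adjusted p of 0.05 (edgeR quasi-likelihood test, Benjamini-Hochberg over 16603 genes), where 0.241% of all genes tested were called higher and 0.217% lower (0.458% in either direction). The log2 fold change, MR over Sham, was positive in 38 of the 40 (36 to 40 in the other fits), against 50.4% of all genes, and its median was 0.39, against 0.00 over all genes. At an unadjusted p under 0.05 there were 26 higher and 0 lower, against 7.78% and 7.29% of all genes. DESeq2 called 7 of the 40 higher (2.14% of all genes) and 0 lower (2.01%), and limma-voom with quality weights called 10 higher (1.49%) and 0 lower (1.26%). edgeR with no filter on low counts called 17 of the 40 higher, where 1.69% of all genes were. With a trend on exon length removed it called 0 in either direction, where 0.693% of all genes were called higher and 0.675% lower. The lowest adjusted p in edgeR was 0.119, for Isg15. The genes share libraries, so their values are not independent of each other.

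**Figure D2:**
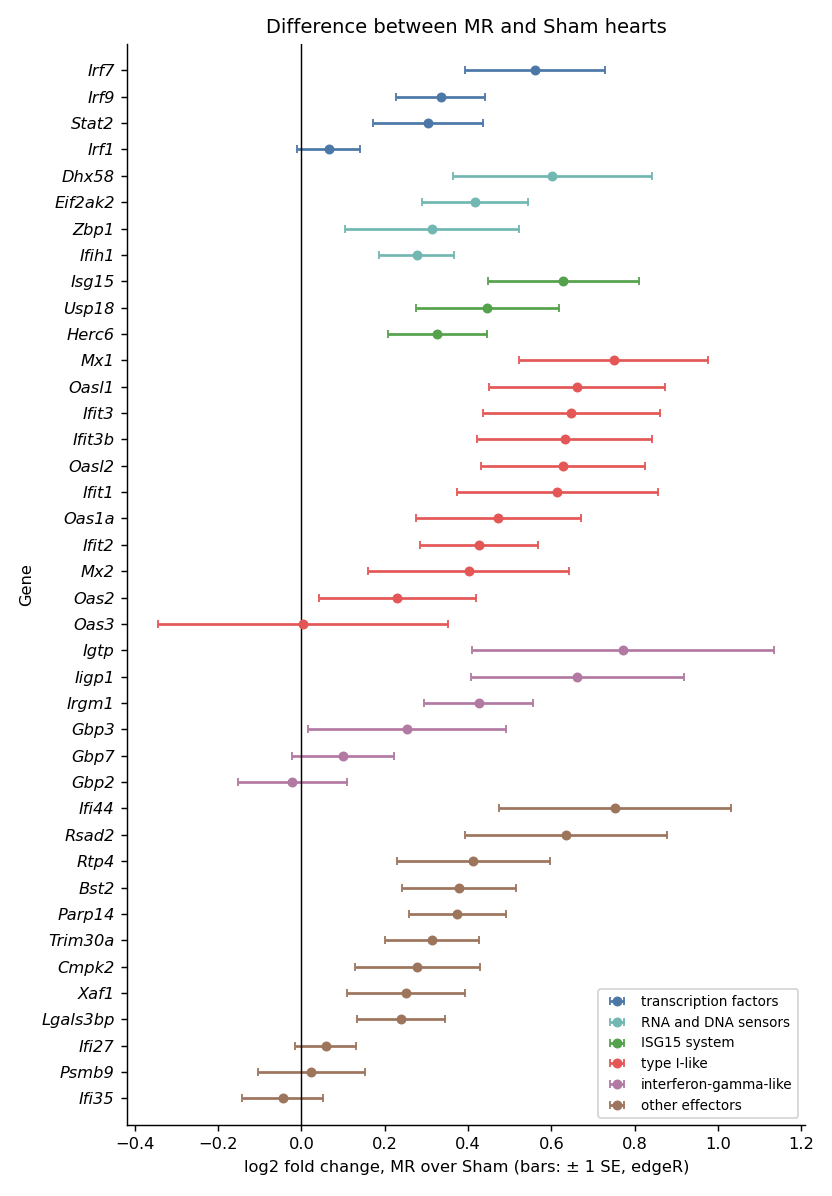
log2 fold change, MR over Sham, of the 40 genes with 1 SE of the edgeR fit, coloured by class. All but Ifi35 and Gbp2 lie to the right of 0, with Oas3 and Psmb9 so near it that these 4 changed sign in some other fits, and the widest bars belong to Igtp and Oas3.

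Single libraries ran through the whole gene group. MR replicate 1 held the highest MR value in 32 of 40 genes. Sham replicate 3 held the highest Sham value in 30 of 40 and Sham replicate 1 in the other 10. Sham replicates 2 and 4 held the lowest Sham value in 17 and 18 genes. The value of Sham replicate 3 lay above the lowest MR value in 39 of 40 genes and above the MR median in 16. All MR values lay above all Sham values in 1 gene, Irf7, against 4.19% of all genes.

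**Figure D3:**
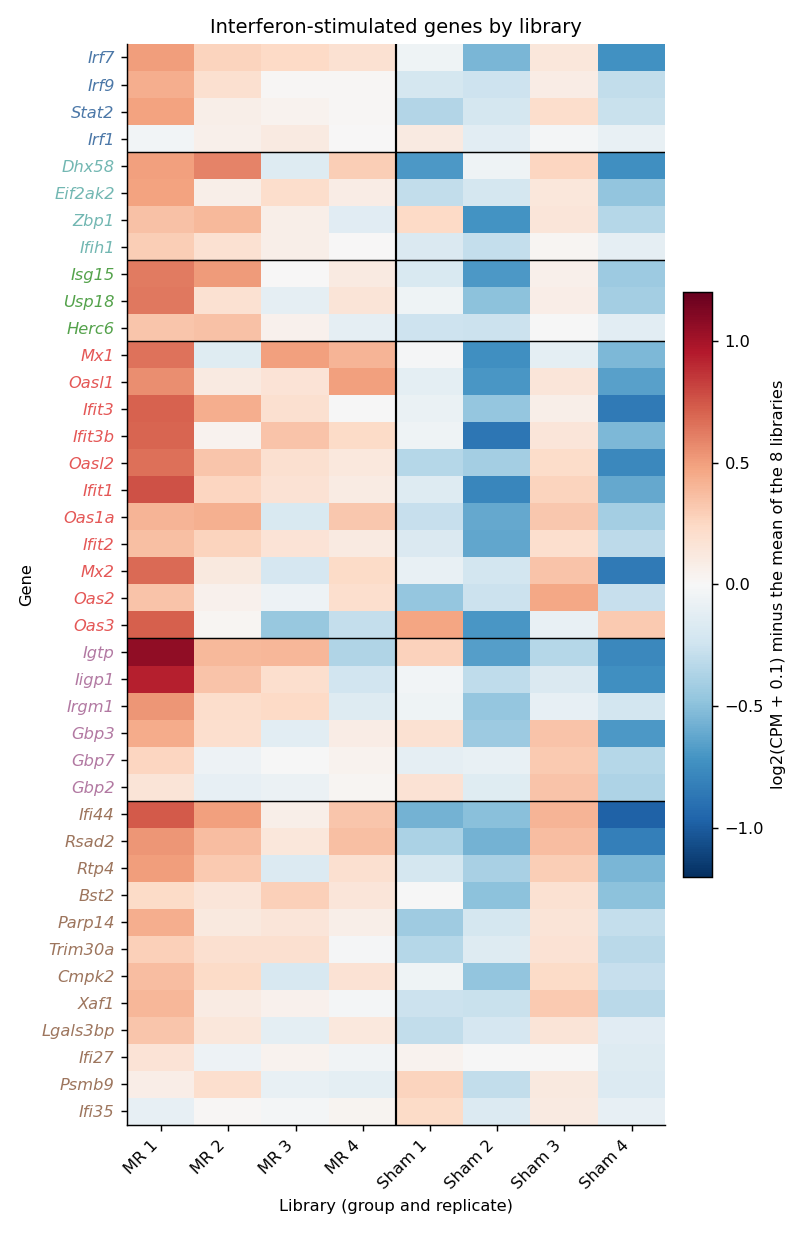
log2(CPM + 0.1) of each gene in each library, centred on the mean of the 8 libraries, with MR libraries on the left, genes grouped by role and a line between groups. MR replicate 1 is the highest MR library in 32 rows, and Sham replicate 3 is the highest Sham library in 30.

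When Sham replicate 3 was left out, 19 of the 40 genes passed as higher in MR, where 2.96% of all genes did, and 0 passed as lower, where 2.32% did. The median log2 fold change over the 40 was then 0.51. Leaving out any other single library gave 0 genes called, with medians of 0.29 to 0.41. In those fits 0.0712%, 0.0298%, 0.0357% and 0.149% of all genes were called higher without MR replicates 1 to 4, and 0.0237%, 0.0298%, 0.0476% and 0.0952% lower. Without Sham replicates 1, 2 and 4 the shares were 0.196%, 0.00594% and 0.0178% higher, and 0.356%, 0.0119% and 0.0178% lower. The 19 genes were 7 of the 11 type I-like genes, 0 of the 6 interferon-gamma-like genes, and Isg15, Irf7, Irf9, Stat2, Eif2ak2, Rsad2, Ifi44, Bst2, Xaf1, Rtp4, Parp14 and Trim30a. This fit rests on 4 MR and 3 Sham libraries, and Sham replicate 3 was doubted only after its values had been seen. Because it held the highest Sham value in 30 of 40 genes, omitting it raised their log2 fold changes by construction. The p-values of this fit, here and below, are therefore not separate support. Without MR replicate 1, the highest MR library in 32 of 40 genes, the medians were 0.29 over the 40 genes and 0.44 over the type I-like genes.

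**Figure D4:**
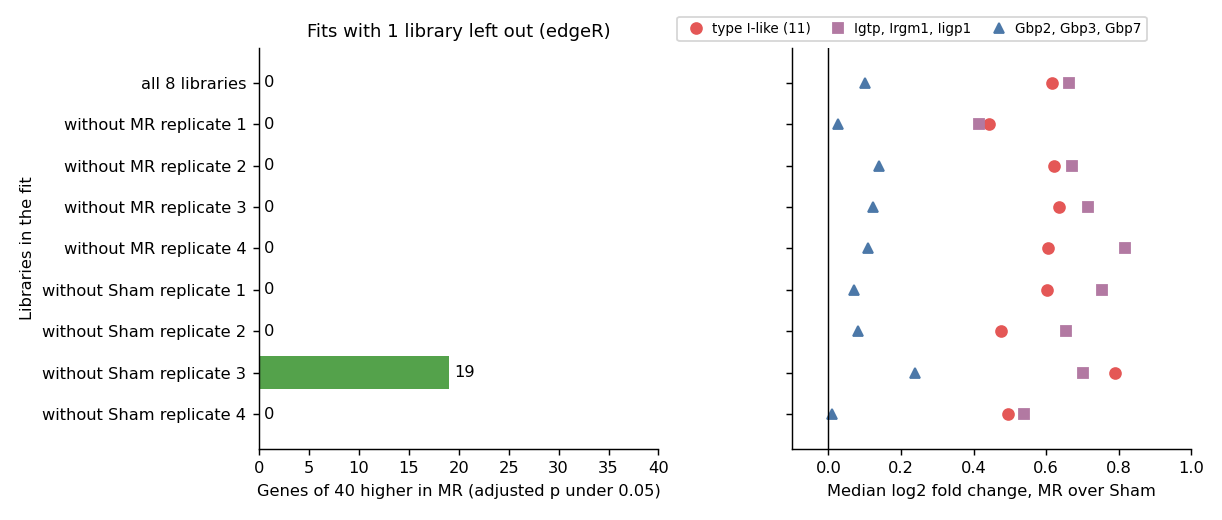
Left, number of the 40 genes called higher in MR (edgeR, adjusted p under 0.05) with all 8 libraries and with each library left out; right, median log2 fold change, MR over Sham, of 3 gene families in the same fits. The count is 19 without Sham replicate 3 and 0 in the other fits, and the Gbp median is the lowest of the 3 in each fit shown.

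Of the transcription factors that carry the signal, Irf7, Irf9 and Stat2 had the larger log2 fold changes and Irf1 the smallest. Irf7 (ENSMUSG00000025498, chromosome 7, 141262706 to 141266481, GRCm38) encodes the factor that amplifies type I interferon production. It stood at 23.4, 19.9, 19.4 and 18.7 CPM in MR replicates 1 to 4, against 15.9, 11.2, 18.1 and 9.89 CPM in Sham replicates 1 to 4. Every MR value exceeded every Sham value, with Sham replicate 3 the nearest. The log2 fold change was 0.56 (SE 0.17, adjusted p = 0.147), and 0.72 without Sham replicate 3 (adjusted p = 0.0129). Irf7 overlaps Phrf1 on the other strand, and the strand setting of the counting is not given, so the 2 cannot be fully told apart.

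Irf9, the DNA-binding part of the type I complex, stood at 45.6, 38.6, 34.0 and 34.0 CPM in MR, against 29.2, 28.3, 35.7 and 27.5 CPM in Sham (log2 fold change 0.33, adjusted p = 0.152 in edgeR). Its partner Stat2 averaged 36.1 ± 5.93 CPM in MR and 29.3 ± 5.44 CPM in Sham (SD, n = 4; log2 fold change 0.30, adjusted p = 0.305 in edgeR). Both passed without Sham replicate 3, at adjusted p-values of 0.0284 and 0.0360 in edgeR. With single libraries left out the log2 fold change ran from 0.24 to 0.42 for Irf9 and from 0.18 to 0.44 for Stat2. Irf1, which interferon gamma induces through a GAS, averaged 21.9 ± 0.939 CPM in MR and 20.9 ± 1.505 CPM in Sham (SD, n = 4), a log2 fold change of 0.07 (SE 0.08), and it stayed between 0.04 and 0.11 with any library left out.

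The 4 sensors of foreign nucleic acid had log2 fold changes of 0.28 to 0.60. Eif2ak2 encodes PKR, the kinase that stops translation when it binds double-stranded RNA. It stood at 38.0, 28.5, 31.4 and 28.8 CPM in MR, against 22.1, 23.5, 29.8 and 19.5 CPM in Sham. Sham replicate 3 lay within the MR values and the other Sham libraries below them, and the log2 fold change was 0.42 (SE 0.13, adjusted p = 0.140 in edgeR). Ifih1 encodes MDA5, a receptor for long double-stranded RNA, and averaged 20.1 ± 1.83 CPM in MR and 16.6 ± 1.503 CPM in Sham (SD, n = 4; log2 fold change 0.28, adjusted p = 0.157 in edgeR). Dhx58, whose product LGP2 modulates that receptor, was at a log2 fold change of 0.60 (SE 0.24), and Zbp1, a sensor of Z-form nucleic acid, at 0.31 (SE 0.21).

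Isg15 (ENSMUSG00000035692, chromosome 4, 156199424 to 156200818) encodes a ubiquitin-like protein that is joined to other proteins. It stood at 6.84, 6.31, 4.41 and 4.77 CPM in MR, against 3.88, 2.70, 4.61 and 3.24 CPM in Sham. MR replicates 1, 2 and 4 lay above all Sham values, and Sham replicate 3 lay above MR replicate 3. The log2 fold change was 0.63 (SE 0.18), and without Sham replicate 3 it was 0.77 (adjusted p = 0.0259 in edgeR). Usp18, the protease that removes ISG15 and damps the type I receptor, was at 0.45 (SE 0.17), and Herc6, the mouse ligase that attaches it, at 0.33 (SE 0.12).

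All 11 type I-like genes had positive log2 fold changes, against 50.4% of all genes. They ran from 0.00 (Oas3, which changed sign in other fits) to 0.75, with a median of 0.61. Of the 11, 8 were higher at an unadjusted p under 0.05, against 7.78% of all genes. The group's mean log2 CPM was 3.25, 2.82, 2.72 and 2.82 in MR replicates 1 to 4, against 2.53, 2.05, 2.83 and 2.14 in Sham replicates 1 to 4. Sham replicate 3 exceeded 3 of the 4 MR libraries, and the other Sham libraries lay below all of them. The MR mean exceeded the Sham mean by 0.52, with SDs of 0.24 in MR and 0.36 in Sham.

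The Ifit genes encode proteins that grip viral RNA ends, and they lie close together on chromosome 19. Ifit1 stood at 21.6, 15.1, 14.2 and 13.5 CPM in MR, against 11.3, 7.29, 15.2 and 8.23 CPM in Sham (log2 fold change 0.61, SE 0.24, adjusted p = 0.275 in edgeR). Ifit3 stood at 25.8, 21.3, 17.98 and 15.7 CPM in MR, against 14.9, 11.4, 16.5 and 8.68 CPM in Sham (log2 fold change 0.65, SE 0.21, adjusted p = 0.191 in edgeR). In both genes only Sham replicate 3 reached into the MR range. Ifit2 and Ifit3b were at log2 fold changes of 0.43 and 0.63. Not every gene of this cluster was higher in MR. Ifit1bl1, a further type I-like gene named after its values were seen, lies between Ifit3 and Ifit3b. It was at −0.40 (SE 0.14, adjusted p = 0.183 in edgeR), with all MR values below all Sham values. Ifit3 and Ifit3b are near copies: 51.2% of the 50-base words of Ifit3 transcripts also occur in Ifit3b, so the split of reads between them is uncertain.

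Some members of the oligoadenylate synthetase family, though not all, make the messenger that activates RNase L. Of this family Oasl1 and Oasl2 had the largest log2 fold changes, 0.66 and 0.63 (SE 0.21 and 0.20). Oasl1, which in mice restrains the making of IRF7, stood at 3.01, 2.19, 2.28 and 2.88 CPM in MR, against 1.86, 1.21, 2.25 and 1.25 CPM in Sham. Oasl2 stood at 29.0, 23.0, 21.0 and 19.9 CPM in MR, against 14.4, 13.7, 21.3 and 10.7 CPM in Sham, with Sham replicate 3 inside the MR range and the others below it. Without Sham replicate 3 it passed at an adjusted p of 0.00473 in edgeR. Oas1a stood at 5.70, 5.78, 3.76 and 5.37 CPM in MR, against 3.53, 2.77, 5.38 and 3.20 CPM in Sham (log2 fold change 0.47, SE 0.20). It shares 57.6% of its 50-base words with Oas1g and is uncertain for that reason. Oas2 was at 0.23 (SE 0.19), and 0.47 without Sham replicate 3. Oas3 had 0.715 ± 0.319 CPM in MR and 0.712 ± 0.264 CPM in Sham (SD, n = 4), a log2 fold change of 0.00 with an SE of 0.35, so its value is loosely set in these 8 libraries.

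Mx1 and Mx2 belong to a family of dynamin-like GTPases that block viral replication, and many inbred mouse strains carry a disabled Mx1. The annotation used here lists Mx2 as a polymorphic pseudogene. Whether either transcript gives a working protein in these mice was not tested. Mx1 stood at 2.45, 1.37, 2.18 and 2.06 CPM in MR, against 1.51, 0.876, 1.40 and 1.01 CPM in Sham. MR replicate 2 fell within the Sham values and the other MR libraries lay above them. The log2 fold change of 0.75 (SE 0.23, adjusted p = 0.133 in edgeR) was the largest of the type I-like genes. Mx2 was at 0.40 (SE 0.24).

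The medians of the listed interferon-gamma-like genes differed between the Irg and Gbp families, but further genes of these families did not keep to that division. Over all 6 the median log2 fold change was 0.34 and 5 were positive, against 50.4% of all genes. Igtp, Irgm1 and Iigp1 had a median of 0.66, while Gbp2, Gbp3 and Gbp7 had one of 0.10. With single libraries left out the Irg median ran from 0.42 (without MR replicate 1) to 0.82 (without MR replicate 4), and the Gbp median from 0.0091 (without Sham replicate 4) to 0.24 (without Sham replicate 3). The mean log2 CPM of the Irg genes was 6.74, 6.21, 6.18 and 5.65 in MR, against 5.96, 5.42, 5.69 and 5.32 in Sham, a difference of 0.60 with SDs of 0.45 in MR and 0.29 in Sham. That of the Gbp genes was 5.04, 4.77, 4.69 and 4.81 in MR, against 4.84, 4.53, 5.09 and 4.29 in Sham, a difference of 0.14 with SDs of 0.15 in MR and 0.35 in Sham. For the Gbp genes the Sham values enclosed the MR values. Among further Irg genes, Irgm2 was at a log2 fold change of 0.88, but Tgtp1, Tgtp2 and Ifi47 were at −0.09, 0.04 and 0.13. Further Gbp genes ran from −0.09 (Gbp4) to 0.34 (Gbp10), so the ranges of these further genes overlapped. Whether the families differ from each other, or from the type I-like genes, was not tested.

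**Figure D5:**
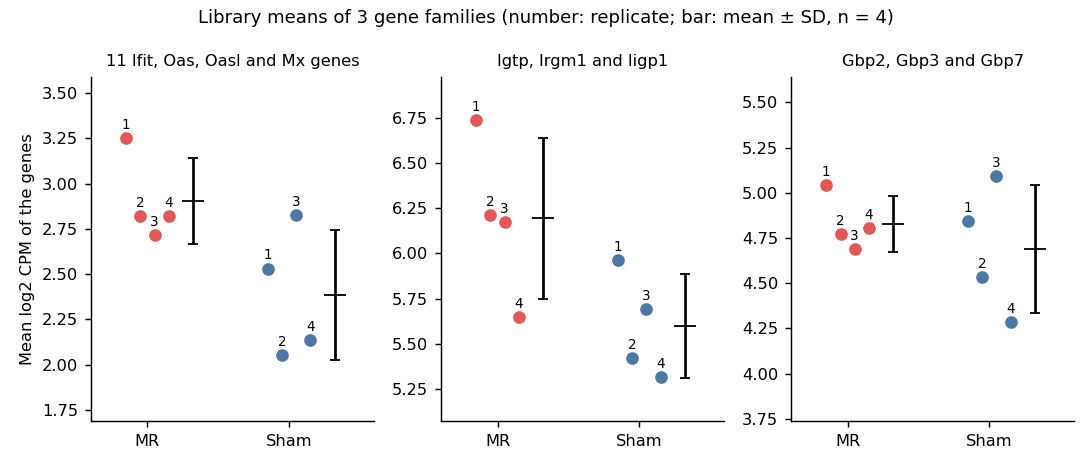
Mean log2 CPM of the type I-like, Irg and Gbp genes in each library (numbers are replicates), with the mean ± SD of 4 libraries per group. Each panel spans the same log2 range; Sham replicate 3 lies among the MR libraries for the type I-like genes, is the highest library for the Gbp genes, and lies below Sham replicate 1 for the Irg genes.

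Irg proteins attack the vacuoles of intracellular pathogens. Irgm1 (ENSMUSG00000046879, chromosome 11, 48861968 to 48871683), a regulatory member, stood at 60.9, 48.6, 49.6 and 37.7 CPM in MR, against 40.7, 30.5, 39.4 and 35.9 CPM in Sham. MR replicates 1 to 3 lay above all Sham libraries and MR replicate 4 among them. Its log2 fold change was 0.43 (SE 0.13, adjusted p = 0.150 in edgeR), and it was not called without Sham replicate 3 (adjusted p = 0.111 in edgeR). Iigp1, an effector member, stood at 241, 160.5, 145 and 108 CPM in MR, against 123, 102, 112 and 75.8 CPM in Sham (log2 fold change 0.66, SE 0.26, adjusted p = 0.284 in edgeR). Igtp, a second regulatory member, stood at 82.9, 51.9, 52.3 and 30.8 CPM in MR, against 48.0, 25.1, 31.3 and 23.2 CPM in Sham (log2 fold change 0.77, SE 0.36, adjusted p = 0.385 in edgeR). In all 3 genes MR replicate 1 was the highest library and Sham replicate 1, not 3, the highest of Sham. Igtp overlaps Irgm2 on the same strand and shares 11.8% of its 50-base words with it, so its count is uncertain.

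Gbp proteins coat the same vacuoles and the bacteria that escape them. Gbp2 (ENSMUSG00000028270, chromosome 3, 142620602 to 142638008) stood at 27.8, 23.4, 23.7 and 25.4 CPM in MR, against 28.3, 22.6, 31.6 and 19.3 CPM in Sham. The MR values lay inside the Sham range, and the log2 fold change was −0.02 (SE 0.13, adjusted p = 0.964 in edgeR). Its sign turned positive in several other fits, up to 0.10. Gbp7 stood at 38.1, 30.4, 31.6 and 32.6 CPM in MR, against 29.4, 29.8, 39.6 and 25.0 CPM in Sham, with a log2 fold change of 0.10 (SE 0.12). Gbp3 was at 0.25 (SE 0.24).

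Of the other effectors, Ifi44 and Rsad2 had the largest log2 fold changes. Ifi44, which encodes a protein that restrains viral growth, stood at 13.1, 11.1, 8.20 and 9.86 CPM in MR, against 5.24, 5.49, 10.4 and 3.95 CPM in Sham. Sham replicate 3 lay inside the MR range and the other 3 Sham libraries below it. The log2 fold change was 0.75 (SE 0.28, adjusted p = 0.248 in edgeR), and 1.11 without Sham replicate 3 (adjusted p = 0.00258). Rsad2 encodes viperin, an antiviral enzyme that makes a chain-terminating nucleotide, and stood at 38.5, 34.7, 29.5 and 34.3 CPM in MR, against 20.5, 17.99, 34.6 and 15.1 CPM in Sham. Its log2 fold change was 0.63 (SE 0.24), and 0.94 without Sham replicate 3 (adjusted p = 0.000852). Cmpk2, its neighbour on chromosome 12 and a mitochondrial nucleotide kinase, was at 0.28 (SE 0.15).

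Parp14, an ADP-ribosyltransferase, stood at 73.1, 58.8, 59.8 and 56.9 CPM in MR, against 40.4, 46.8, 60.3 and 44.3 CPM in Sham (log2 fold change 0.37, SE 0.12, adjusted p = 0.151 in edgeR). Bst2, or tetherin, which holds budding virus at the cell surface, averaged 21.9 ± 1.07 CPM in MR and 16.8 ± 4.06 CPM in Sham (SD, n = 4; log2 fold change 0.38). Rtp4, Trim30a, Xaf1 and Lgals3bp were at log2 fold changes of 0.41, 0.31, 0.25 and 0.24. Rtp4 shares 11.6% of its 50-base words with Gm45338 and is uncertain. Ifi27, a mitochondrial and nuclear membrane protein, was at 0.06 (SE 0.07), and Ifi35, a binder of other interferon-induced proteins, at −0.04 (SE 0.10). Psmb9, a catalytic subunit of the immunoproteasome, stood at 8.47, 9.23, 7.57 and 7.41 CPM in MR, against 9.70, 6.53, 8.76 and 7.15 CPM in Sham. The groups overlapped, the log2 fold change was 0.02 (SE 0.13), and its sign turned in some of the fits with a library left out. Psmb9 overlaps Tap1 on the other strand, so its count is uncertain in the same way as that of Irf7. Irf1, Usp18, Herc6, Dhx58, Oasl1, Oas2, Rtp4 and Ifi35 also overlap a gene on the other strand by position. On the same strand, besides Igtp, the genes with an overlap were Irf9, Parp14 and Rtp4. How far these overlaps enter the counts was not tested.

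Levels of different genes were compared as CPM per kilobase of exon. Iigp1 and Igtp were the highest of the 40, at 28.1 and 26.9 CPM per kilobase in MR and 17.7 and 15.8 in Sham. Ifi27 and Bst2 followed at 24.4 and 24.2 in MR and 23.4 and 18.6 in Sham. Ifit3 was the highest type I-like gene, at 11.6 in MR and 7.38 in Sham, and Mx1 and Oas3 were the lowest of all, at 0.533 and 0.101 in MR and 0.317 and 0.101 in Sham. The interferon-gamma-like genes thus included the highest levels of the 40, and the type I-like genes the lowest.

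Of 15 listed interferons and inducing cytokines 6 were matched; the other 9, among them Ifnb1 and the listed Ifna genes, were not analysed here, so the main type I interferons have no value. Ifng, which encodes interferon gamma, had 2 counts over the 4 MR libraries and 1 over the 4 Sham libraries, and Ifnk had 0 in every library. Il18, a cytokine that induces interferon gamma, was the 1 tested gene, at a log2 fold change of 0.26 (adjusted p = 0.753 in edgeR). Of 11 receptor and JAK-STAT genes 0 passed in either direction in edgeR (1 higher and 0 lower at an unadjusted p under 0.05), and their median log2 fold change was 0.08. Ifnar1 and Ifngr1, receptor chains for type I interferons and interferon gamma, had log2 fold changes of 0.17 and 0.14, with edgeR adjusted p-values of 0.367 and 0.409.

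Of 16 genes of nucleic acid sensing 0 passed in either direction in edgeR. At an unadjusted p under 0.05 there were 2 higher and 1 lower, against 7.78% and 7.29% of all genes. Ddx58, which encodes the RNA sensor RIG-I, was at a log2 fold change of 0.34 (adjusted p = 0.0974), and Cgas, the DNA sensor, at 0.45 (adjusted p = 0.249). Irf3, the factor that these sensors activate, was at −0.20 (adjusted p = 0.179), with 19.2 ± 0.554 CPM in MR and 22.0 ± 0.945 CPM in Sham (SD, n = 4). Of 9 negative regulators 0 passed (0 higher and 1 lower unadjusted). Pias1, an inhibitor of STAT signalling, was at −0.22 (adjusted p = 0.129), with 31.1 ± 1.83 CPM in MR and 36.3 ± 0.809 CPM in Sham. Irf2bp1 and Ptpn2, a repressor partner of IRF2 and a phosphatase of the JAK-STAT route, were at −0.20 and −0.12. All MR values of Irf3, Pias1 and Ptpn2 lay below all Sham values, against 3.91% of all genes, and all MR values of Cgas and Ikbke lay above all Sham values, against 4.19%.

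Interferon-stimulated genes outside the 40 were read from the same fit. Over all genes 7.78% were higher and 7.29% lower at an unadjusted p under 0.05, and 50.4% were positive. Of 25 tested further type I-like genes 0 passed (10 higher and 2 lower unadjusted), 22 were positive and the median log2 fold change was 0.24. Slfn9 and Dtx3l were at 0.79 and 0.39 (adjusted p 0.0678 and 0.0697 in edgeR), while Ifitm1, a membrane protein that blocks viral entry, was at −1.07 (adjusted p = 0.0506). Ifitm1 stood at 2.91, 2.70, 3.65 and 2.51 CPM in MR, against 7.08, 5.16, 3.98 and 8.49 CPM in Sham, and its highest Sham values were in Sham replicates 4 and 1, which also held the highest neutrophil sums. The part of neutrophil RNA in this value was not tested. Of 27 further interferon-gamma-like genes 0 passed (6 higher and 0 lower unadjusted), 17 were positive and the median was 0.12. Cxcl10, a chemokine that draws T cells, was at 1.07 (adjusted p = 0.109), on 0.801 ± 0.0836 CPM in MR and 0.378 ± 0.145 CPM in Sham. Nlrc5, the activator of MHC class I genes, was at 0.43, and Irgm2, the third regulatory Irg gene, at 0.88 (adjusted p = 0.221). Named after their values were seen, Tgtp1, Tgtp2 and Ifi47, 3 further Irg genes, were at −0.09, 0.04 and 0.13, so that values near those of Igtp were not found across the whole family, and the 6 further Gbp genes tested, Gbp4, Gbp5, Gbp6, Gbp8, Gbp9 and Gbp10, were at −0.09, 0.12, 0.32, −0.07, 0.25 and 0.34. Of the 27 further interferon-gamma-like genes, all MR values lay above all Sham values in 2, Cxcl10 and Gbp6, and below them in 0. The adjusted p of Gbp6 was 0.227 in edgeR. Of the 25 tested further type I-like genes, all MR values lay above in 3 and below in 2, Ifitm1 and Ifit1bl1. Over all genes the shares were 4.19% above and 3.91% below.

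Markers of cells that could carry these transcripts were summed beside the genes. Macrophage markers, 12 genes, summed to 269 to 307 CPM in MR and 285 to 300.0 CPM in Sham. The sum hides members that moved in opposite directions. At an unadjusted p under 0.05 in edgeR 3 were higher and 1 lower, against 7.78% and 7.29% of all genes, and 0 passed. Cx3cr1, Timd4 and Fcgr1 were at log2 fold changes of 0.72, 0.44 and 0.39, and Mrc1 was at −0.29. Endothelial markers, 7 genes, summed to 808 to 854 CPM in MR and 687 to 836 CPM in Sham, with 836 in Sham replicate 3. B cell markers, 7 genes, summed to 9.005 to 12.4 CPM in MR and 7.86 to 9.58 CPM in Sham. Most of that sum was Ighm, with means of 8.07 CPM in MR and 7.07 CPM in Sham. Dendritic cell markers, 8 genes, summed to 28.8 to 31.5 CPM in MR and 24.5 to 28.7 CPM in Sham. Most of that was Zbtb46, with means of 22.5 and 20.3 CPM, and the groups overlapped in Ighm and Zbtb46. Log2 fold changes were positive in 6 of 7 tested B cell and 7 of 7 tested dendritic cell markers (50.4% of all genes), and 0 passed. T and NK cell markers, 13 genes, summed to 2.21 to 4.16 CPM in MR and 2.82 to 4.80 CPM in Sham. Atrial markers, 5 genes, summed to 93.4 to 212 CPM in MR and 45.6 to 70.3 CPM in Sham, most of it Nppa, which is also known to rise in stressed ventricle. Nppa stood at 81.5, 96.1, 205 and 81.4 CPM in MR, against 41.9, 43.8, 54.4 and 65.7 CPM in Sham, while the groups overlapped in Myl4, Myl7 and Sln. Fibroblast markers, 6 genes, summed to 807 to 894 CPM in MR and 765 to 817 CPM in Sham, and among them Col1a1, a collagen chain, was the 1 marker of any list that passed (log2 fold change 0.81, adjusted p = 0.0483 in edgeR). Erythroid markers, 6 genes, summed to 724, 614, 531 and 376 CPM in MR, against 558, 324, 309 and 559 CPM in Sham. In MR the erythroid sums fell in order from replicate 1 to replicate 4, as did the Irg means. In Sham, replicates 1 and 4 had the highest erythroid sums, nearly equal at 558 and 559 CPM. Their Irg means were the highest and the lowest of Sham (log2 CPM 5.96 and 5.32). Log2 fold changes were positive in 5 of 5 tested erythroid markers, against 50.4% of all genes, and 0 passed. Monocyte markers, 7 genes, summed to 15.5 to 19.8 CPM in MR and 16.4 to 21.5 CPM in Sham. None of these markers was at 0 in every library. Their part in the values of the interferon-stimulated genes was not tested.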

How the data were processed

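RNA was sequenced from 8 mouse heart libraries, 4 labelled MR and 4 labelled Sham. Values in the deposited table are raw, unnormalized read counts by Ensembl gene. Per the submitters' processing notes HISAT2 2.0.5 and the build mm10 were used; neither the counting tool nor its strand setting is stated there. Columns were matched to libraries by title and groups taken from the treatment label. Symbols and positions came from GENCODE M21 (GRCm38), which matched 32350 identifiers, while 755 stayed without a symbol.

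Genes were filtered with filterByExpr (minimum count 10, total 15), which left 16603, scaled by TMM (factors 0.967 to 1.019) and tested with the quasi-likelihood F test of edgeR 4.0.16 with robust moderation, in R 4.3.3. Every adjusted p of a gene is from this test unless another is named. The SE of a log2 fold change is its size over the square root of F. Mean log2 CPM used a prior count of 2. Within groups, pairs of libraries differed by more than counting noise (chi-square per degree of freedom 12.0 to 42.6), and none was a copy. Alternatives used DESeq2 1.42.0, limma 3.58.1, other scalings and filters, and each library left out. The script was tested on simulated data.

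The 40 genes and the other lists were chosen with earlier results of these data known. The text names all 40 genes and the 3 genes with the lowest p of each list of pathway genes (the one tested gene for ligands), plus exceptions named as such. One gene that this rule would name is not reported here. CPM in every library is printed for the 8 of the 40 with the lowest p and for 12 listed genes. It is printed for Oasl2, Ifi44, Rsad2 and Ifitm1 as well, chosen after their values were seen.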

Additional observations from a re-analysis of the deposited data

Results flagged for a closer look

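Of 90 sets of 4 values (40 genes and 5 gene sets in each group), 3 had a library far from the other 3 by Dixon's criterion, and chance flags about 1 in 20. Stat2 stood at 44.98 CPM in MR replicate 1, against 32.6 to 33.8 CPM in the other MR libraries. Xaf1 stood at 20.4 CPM in Sham replicate 3, against 13.1 to 13.7 CPM in the other Sham libraries. Oas2 stood at 31.0 CPM in Sham replicate 3, against 16.3 to 18.8 CPM in the other Sham libraries. In Sham replicate 3, Oas2 exceeded all 4 MR libraries and Xaf1 exceeded 3 of them.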

How the results depend on the processing

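The count of the 40 genes called higher in MR was 0 with all 8 libraries and became 17 with no low-count filter (Isg15, Irf7 and 5 type I-like genes among them; 1.69% of all genes), 7 in DESeq2 and 10 in limma-voom with quality weights. It was 0 with RLE or library-total scaling, at 1 CPM in 4 libraries, without robust moderation, without mitochondrial genes, with a length trend removed (chosen after seeing the data) and at a false discovery rate of 0.10, and between 0 and 19 when single libraries were omitted. The count called lower was 0 throughout. Over all genes the counts called higher and lower were 40 and 36, then 53 and 17 with library totals (75.7% higher against 52.6%), 517 and 419 with no filter, 32 and 20 at 1 CPM, 355 and 333 in DESeq2, 248 and 209 in limma-voom, 115 and 112 without the length trend, and 218 and 179 at 0.10. Omitting single libraries gave 1 to 497 called higher and 2 to 390 lower. The cause of these moves was not tested. Of 679 refitted values of single genes, 15 changed sign, in Gbp2, Ifi35, Oas3 and Psmb9, none of them past the threshold. Gbp2 was at 0.0219 with library totals and 0.10 in limma-voom, Ifi35 at 0.0218 in limma-voom and Oas3 at −0.0195 without the length trend. With single libraries omitted Gbp2 ran from −0.14 to 0.10, Ifi35 from −0.10 to 0.0242, Oas3 from −0.34 to 0.18 and Psmb9 from −0.0625 to 0.12. With the ISRE as its letters followed by C, 46.7% of the genes' promoters held a match, against 0.944% of all genes with a promoter. Ifng and Ifnk, at 0 to 2 counts a library, could not be tested at this depth. No paired analysis was possible because the labels give no replicate numbers shared between groups.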
